A study of Mus musculus with 12 samples.

Results

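The 37 genes described here encode the glycolytic enzymes, the transporters and regulators around them, and transcripts known to respond to low oxygen. They were taken by gene symbol from the 45859 genes of the deposited tables, and each symbol matched 1 row. Libraries were made from mouse lens capsules with their attached lens epithelial cells (LCs), collected after surgical removal of the lens fiber mass, a mouse model of cataract surgery. The 4 groups of 3 libraries were WT at 0 h post cataract surgery (PCS), WT at 24 h PCS, and β8ITG-cKO at the same 2 times. Each library was pooled from several capsules. WT mice were C57BL/6. The β8ITG-cKO mice had, per the labels, a mixed C57BL/6 and 129S1/Sv background and lost β8 integrin (Itgb8) in the lens, through a floxed exon and a Cre transgene that is active in all LCs from early lens development and was kept on a C57BL/6<har> background, so genotype and strain background cannot be told apart. All groups were adults of 2 months and all were operated on. The comparisons ask how LCs respond to surgery in 1 day, and whether β8 integrin loss alters that response.

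Glycolysis splits glucose into pyruvate, and lactate dehydrogenase turns pyruvate into lactate when oxygen is scarce or when cells favor fast ATP production. The lens has no blood supply and is known to depend heavily on glycolysis. When oxygen falls, prolyl hydroxylases of the Egln family stop marking the HIF-1α protein for destruction, and HIF-1 then binds short core motifs near its target genes, which include most glycolytic enzymes. HIF-1α is controlled mainly as a protein, which RNA does not measure.

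In the WT libraries, Aldoc, Ndrg1, Ddit4, Pdk1, Bnip3, Ldhb, P4ha2, Hif1a and Pfkm fell over 24 h and Slc16a1 rose. The falls of Ddit4 and Ldhb were lost in 5 and 4 of the 6 fits that left out 1 library. In the β8ITG-cKO libraries, Slc16a1 rose as well, as did Hk1, Slc2a3, Ankrd37, Adm, Vegfa, Car9 and several glycolytic enzymes. Aldoc, both prolyl 4-hydroxylase subunits, Hif1a and Slc2a1 fell in that genotype. The 14 of 35 members that rose there compare with 35.4% of all genes, and Hk2, Gpi1, Aldoa, Pgk1, Pgam1, Vegfa and Car9 did not pass after the libraries were rescaled to 1 median. The change over 24 h differed between the genotypes for Hk1, Ankrd37 and Adm, which passed in all 12 fits that left out 1 library, and for Bnip3, Ddit4 and Ndrg1, which were lost in 10, 10 and 9 of them. Photoreceptor marker RNA was high in the 3 β8ITG-cKO 24 h libraries and in WT 0 h replicate 2, and its part in these differences was not tested. Values are FPKM, fragments scaled to transcript length and to the mapped fragments of the library, so levels of different genes are per length. Changes are on the log2(FPKM + 1) scale with their standard error (SE) from limma, 3 libraries in each group, and a gene passed the test at a Benjamini-Hochberg adjusted p of at most 0.05 over all genes tested. On this scale the change of a low gene is understated. Less RNA per cell and fewer cells of a type cannot be told apart in such bulk libraries.

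**Figure D1:**
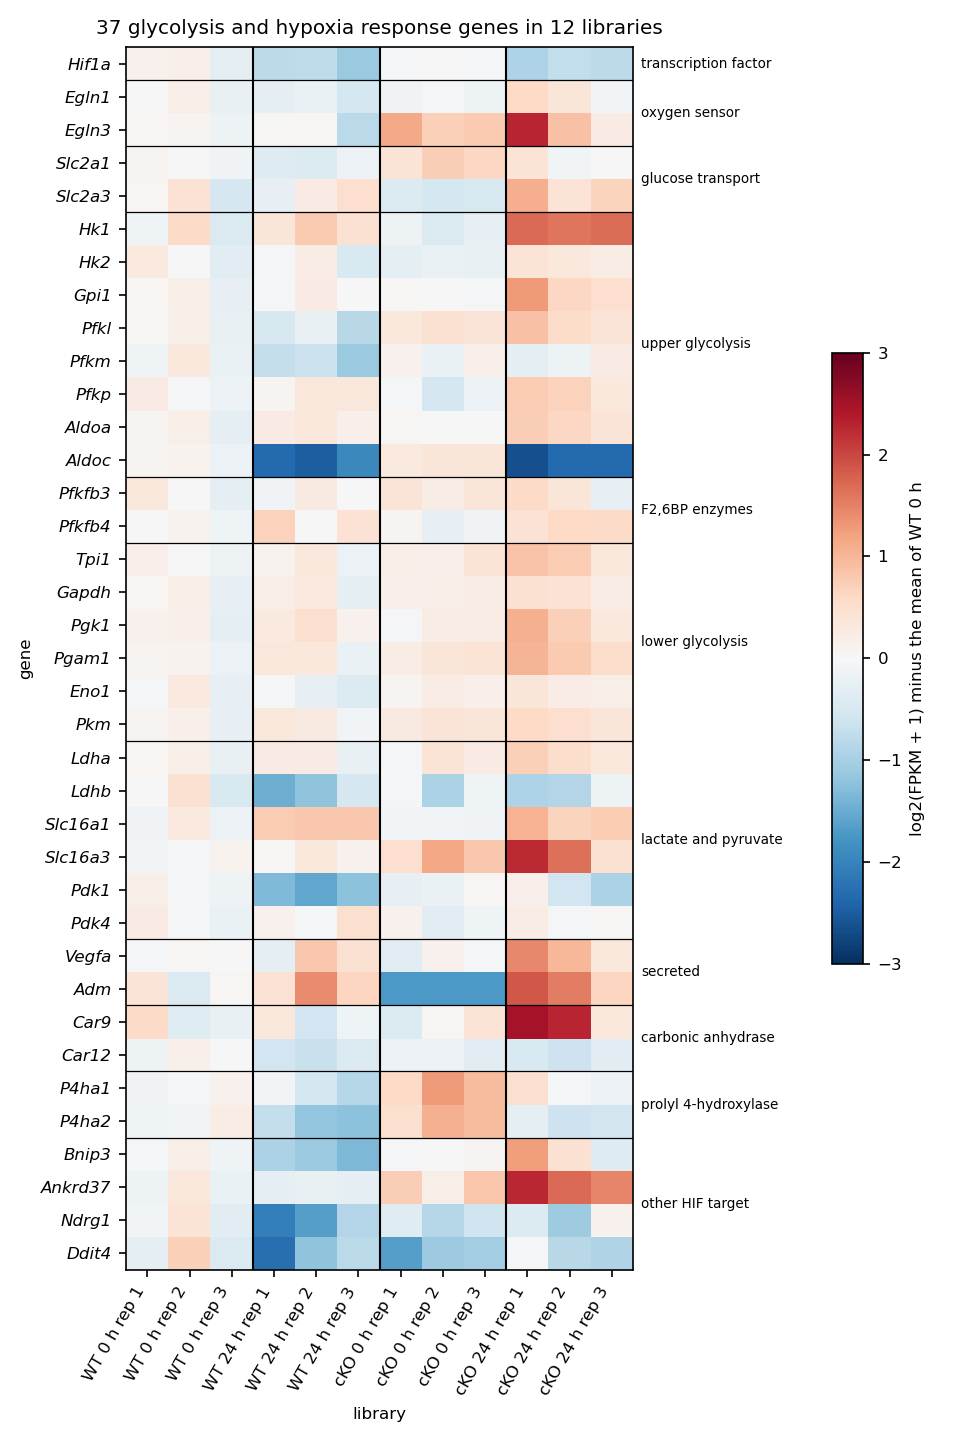
Heat map of the 37 genes (rows, grouped by role) in the 12 libraries (columns). Color gives log2(FPKM + 1) minus the mean of the 3 WT 0 h libraries, clipped at 3 in either direction. Aldoc was the darkest blue row in all 6 libraries at 24 h, and most rows were reddest in β8ITG-cKO 24 h replicate 1.

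Summed FPKM ranged from 446531 to 740140 per library, and the relative depth estimated from the lowest genes ranged from 0.86 to 1.09 of the median library. The lens identity of the libraries was visible in crystallin RNA. Cryab, the most abundant of 9 lens epithelium markers, stood at 9870.3 to 14324 FPKM at 0 h and at 2967 to 5174 FPKM at 24 h. Foxe3, Prox1, Maf, Crim1 and Slc38a3 of that list also had lower WT means at 24 h. In WT the means at 0 h and 24 h were 90.5 and 78.7 FPKM for Pax6, 111 and 107 for Gja1 and 59.1 and 80.9 for Cdh1. In β8ITG-cKO the means of all 9 were lower at 24 h, with Cdh1 at 95.0 and then 42.4 FPKM. Some libraries stood apart in RNA of a neighboring tissue. The summed FPKM of 14 photoreceptor markers was 322, 1020 and 132 in WT at 0 h, 72.6, 134 and 142 in WT at 24 h, 293, 169 and 232 in β8ITG-cKO at 0 h, and 913, 811 and 966 in β8ITG-cKO at 24 h, with arrestin (Sag) or rod transducin (Gnat1) the most abundant of them in each library and no marker at 0. Thus all 3 β8ITG-cKO 24 h libraries and WT 0 h replicate 2 held far more photoreceptor marker RNA than the other 8.

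Itgb8 did not separate the genotypes. It stood at 7.26, 10.8 and 8.42 FPKM in WT at 0 h, 9.08, 8.38 and 9.58 in WT at 24 h, 6.83, 4.58 and 7.31 in β8ITG-cKO at 0 h and 9.28, 11.8 and 10.3 in β8ITG-cKO at 24 h. The genotype difference was -0.45 ± 0.19 (limma adjusted p = 0.209) at 0 h and 0.19 ± 0.14 (limma adjusted p = 0.486) at 24 h. Only 1 exon is removed and FPKM cover the whole gene, so the values do not test the deletion.

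Hif1a, which encodes the oxygen-regulated subunit of HIF-1, was abundant and fell in both genotypes. It stood at 184, 186 and 140.4 FPKM in WT at 0 h and 97.3, 99.2 and 77.3 at 24 h, and at 163, 169 and 165 FPKM in β8ITG-cKO at 0 h and 88.2, 100.3 and 98.3 at 24 h. All 6 libraries at 24 h lay below all 6 at 0 h. The log2 change was -0.89 ± 0.18 (limma adjusted p = 0.00978) in WT and -0.79 ± 0.09 (limma adjusted p = 0.000445) in β8ITG-cKO. Egln1, the main oxygen-sensing HIF prolyl hydroxylase, stood at 26.6, 30.1 and 22.4 FPKM in WT at 0 h, 21.2, 22.6 and 18.0 in WT at 24 h, 24.4, 25.7 and 23.6 in β8ITG-cKO at 0 h and 40.4, 33.8 and 24.6 in β8ITG-cKO at 24 h, with no comparison past the test. At 24 h its 3 β8ITG-cKO libraries lay above the 3 WT libraries, with a difference of 0.63 ± 0.20 (limma adjusted p = 0.119). Egln3, a family member that is itself a HIF target, passed the test at 0 h. It stood at 2.95, 3.03 and 2.42 FPKM in WT and 7.29, 5.27 and 5.56 FPKM in β8ITG-cKO, a difference of 0.88 ± 0.15 (limma adjusted p = 0.0184) between groups that did not overlap. This call was lost in 2 of the 6 fits leaving out 1 library and in the fit over all 12 libraries (limma adjusted p = 0.249). At 24 h Egln3 stood at 2.87, 2.96 and 1.16 FPKM in WT and 17.4, 5.98 and 3.47 FPKM in β8ITG-cKO. The β8ITG-cKO libraries again lay above WT but spread from 3.47 to 17.4 FPKM, and the difference of 1.37 ± 0.50 (limma adjusted p = 0.178) did not pass the test.

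Slc2a1 (GLUT1), the high-affinity glucose transporter of the lens epithelium, was more abundant in the β8ITG-cKO libraries at 0 h. It stood at 168, 159 and 148 FPKM in WT and 209, 265 and 243 FPKM in β8ITG-cKO, without overlap, a difference of 0.59 ± 0.13 (limma adjusted p = 0.0342) that was lost in 5 of the 6 fits leaving out 1 library (limma adjusted p up to 0.145). At 24 h it stood at 119.8, 118 and 140.3 FPKM in WT and 211, 148 and 159 FPKM in β8ITG-cKO. In β8ITG-cKO it fell by 0.48 ± 0.16 on the log2 scale (limma adjusted p = 0.0418), although the 24 h library at 211 FPKM lay just above the lowest 0 h library at 209 FPKM. The neuronal-type transporter Slc2a3 (GLUT3) was scarce, at 0.92, 1.47 and 0.29 FPKM in WT at 0 h, 0.53, 1.17 and 1.59 in WT at 24 h, 0.37, 0.27 and 0.33 in β8ITG-cKO at 0 h and 2.87, 1.42 and 1.90 in β8ITG-cKO at 24 h. It rose in β8ITG-cKO, with a change of 1.18 ± 0.19 (limma adjusted p = 0.00163), and was at most 0.0136 times Slc2a1 in any library.

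Hexokinases trap glucose in the cell as glucose 6-phosphate. Hk1, the broadly expressed isozyme, stood at 17.2, 28.4 and 13.6 FPKM in WT at 0 h and 24.4, 33.4 and 26.4 FPKM at 24 h. In β8ITG-cKO it stood at 16.7, 13.8 and 15.8 FPKM at 0 h and 63.7, 58.9 and 62.8 FPKM at 24 h. The 3 β8ITG-cKO libraries at 24 h lay close together and above the other 9. Hk1 rose 4.0-fold by the ratio of means in β8ITG-cKO, with a log2 change of 1.94 ± 0.10 (limma adjusted p = 1.33e-05). In WT the change was 0.54 ± 0.26 (limma adjusted p = 0.156), and the groups overlapped, with WT 0 h replicate 2 at 28.4 FPKM. Hk2, the insulin- and hypoxia-responsive isozyme, stood at 26.5, 21.7 and 17.1 FPKM in WT at 0 h, 20.7, 25.2 and 15.2 in WT at 24 h, 17.8, 18.6 and 18.1 in β8ITG-cKO at 0 h and 28.8, 27.1 and 25.0 in β8ITG-cKO at 24 h. Its rise in β8ITG-cKO was 0.55 ± 0.09 (limma adjusted p = 0.00209). Hk2 was 1.06 to 1.35 times Hk1 in the β8ITG-cKO libraries at 0 h and 0.398 to 0.461 times Hk1 at 24 h. In WT the ratio was 1.54, 0.764 and 1.26 at 0 h and 0.849, 0.757 and 0.577 at 24 h, so Hk1 was the more abundant of the pair in all 6 libraries at 24 h.

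Among the next enzymes, Gpi1, which isomerizes glucose 6-phosphate, rose in β8ITG-cKO. It stood at 48.7, 48.2 and 46.6 FPKM at 0 h and 117, 74.1 and 68.2 FPKM at 24 h, a change of 0.80 ± 0.19 (limma adjusted p = 0.0107) without overlap. Its WT libraries spanned 40.3 to 56.7 FPKM over both times. The 3 phosphofructokinase genes, whose enzyme commits sugar to glycolysis, passed the test in different comparisons, and no test compared them with each other. Pfkl, the liver-type subunit, stood at 23.5, 25.9 and 19.4 FPKM in WT at 0 h, 16, 19.4 and 12.4 in WT at 24 h, 28.6, 31.5 and 30.3 in β8ITG-cKO at 0 h and 42.7, 33.8 and 30.2 in β8ITG-cKO at 24 h. The lowest β8ITG-cKO library at 24 h lay above the highest WT library at 24 h, with a difference of 1.12 ± 0.20 (limma adjusted p = 0.017). Pfkm, the muscle-type subunit, stood at 7.75, 11.0 and 7.36 FPKM and then 4.84, 5.15 and 3.39 FPKM in WT, a fall of 0.83 ± 0.20 on the log2 scale (limma adjusted p = 0.0205) without overlap. In β8ITG-cKO Pfkm stood at 9.54, 7.39 and 9.71 FPKM and then 6.82, 7.55 and 10.3 FPKM, and the groups overlapped. At 24 h the 3 β8ITG-cKO libraries lay above the 3 WT libraries for Pfkm, but the difference did not pass the test. Pfkp, the platelet-type subunit, was the most abundant of the 3 in 11 of 12 libraries. It stood at 46.7, 37.9 and 34.9 FPKM in WT at 0 h, 42.1, 50.1 and 49.9 in WT at 24 h, 38.2, 27.5 and 34.8 in β8ITG-cKO at 0 h and 67.4, 64.4 and 49.9 in β8ITG-cKO at 24 h. It rose in β8ITG-cKO by 0.84 ± 0.16 (limma adjusted p = 0.00386) without overlap, and its WT change of 0.25 ± 0.16 (limma adjusted p = 0.264) did not pass the test.

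Of the members tested, Aldoc had the largest fall on the log2(FPKM + 1) scale in both genotypes. Aldolases cleave fructose 1,6-bisphosphate, and Aldoa is the muscle-type and Aldoc the brain-type form. At 0 h the lens libraries held about as much Aldoc as Aldoa. Aldoc stood at 297, 298 and 247 FPKM in WT at 0 h and 55.1, 49.5 and 72.1 FPKM at 24 h, a change of -2.25 ± 0.18 (limma adjusted p = 0.000335). The β8ITG-cKO libraries held 345, 363 and 359.6 FPKM at 0 h and 43.8, 54.8 and 55.1 FPKM at 24 h, a change of -2.78 ± 0.12 (limma adjusted p = 5.2e-06). Every library at 24 h lay below every library at 0 h. Aldoa stood at 275, 296 and 216 FPKM in WT at 0 h, 309, 329 and 290.3 in WT at 24 h, 268, 263 and 262 in β8ITG-cKO at 0 h and 436, 403 and 338 in β8ITG-cKO at 24 h. It rose in β8ITG-cKO by 0.56 ± 0.12 (limma adjusted p = 0.00807). The ratio of Aldoc to Aldoa went from between 1.01 and 1.38 in the 6 libraries at 0 h to between 0.101 and 0.248 in the 6 libraries at 24 h, with no overlap. Aldoc is on mouse chromosome 11 from 78323073 to 78327781 in the files' loci (mm10).

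**Figure D2:**
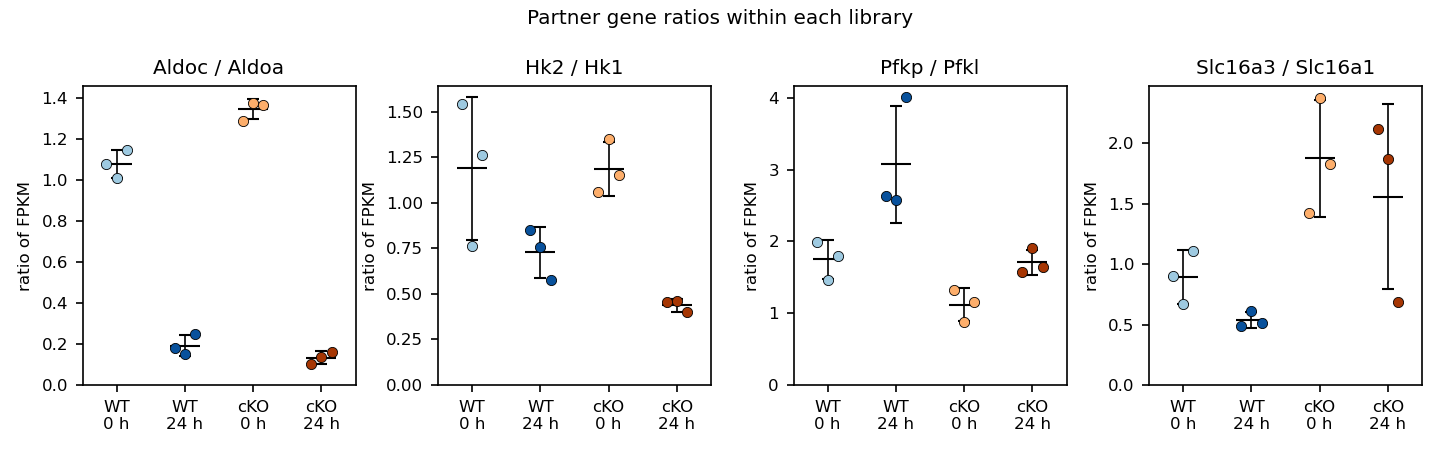
Ratio of FPKM of partner genes (vertical axes, linear from 0) in each of the 12 libraries, by group (cKO is β8ITG-cKO). Points are libraries, wide bars means and error bars SD. Aldoc over Aldoa fell from at least 1.01 to at most 0.248 in both genotypes, and Hk2 over Hk1 was lowest in β8ITG-cKO at 24 h.

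Pfkfb3 and Pfkfb4 make fructose 2,6-bisphosphate, the strongest activator of phosphofructokinase, and both are known HIF targets. Pfkfb3 stood between 7.58 and 14.6 FPKM in all 12 libraries and passed no test. Pfkfb4 stood at 0.82, 0.46 and 0.60 FPKM in β8ITG-cKO at 0 h and 1.34, 1.64 and 1.57 FPKM at 24 h, a rise of 0.63 ± 0.14 (limma adjusted p = 0.00776) without overlap. Its levels were near the filter of 0.5 FPKM.

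Of the 6 enzymes of lower glycolysis, 2 rose in β8ITG-cKO, where 35.4% of all genes did, and none passed another test by limma, with at most 3 at an unadjusted p under 0.05 in a comparison. At 24 h all 6 had a log2 difference above 0 between β8ITG-cKO and WT, 4 of them without overlap, where 17.5% of all genes lay higher without overlap, with a median of 0.45 against 0.03 for all genes. At 0 h all 6 were likewise above 0, 3 without overlap against 18.0% of all genes, with a median of 0.22 against 0.02. Eno1 (enolase) and Pkm (pyruvate kinase) were among the most abundant genes described here. Eno1 stood at 316 to 541 FPKM and Pkm at 206 to 366 FPKM over the 12 libraries, and neither passed a test in any comparison. The same held for Gapdh, at 82.7 to 137 FPKM, and for triosephosphate isomerase (Tpi1), at 37.5 to 77.9 FPKM. Phosphoglycerate kinase (Pgk1) and phosphoglycerate mutase (Pgam1) rose in β8ITG-cKO. Pgk1 stood at 52.5, 62.4 and 62.5 FPKM at 0 h and 113, 88.5 and 67.4 FPKM at 24 h, a change of 0.57 ± 0.18 (limma adjusted p = 0.0364). Pgam1 stood at 49.1, 54.9 and 56.3 FPKM at 0 h and 86.5, 73.2 and 61.1 FPKM at 24 h, a change of 0.44 ± 0.14 (limma adjusted p = 0.0309). Neither pair of groups overlapped, yet neither rise passed the test once all libraries were brought to 1 median (limma adjusted p = 0.346 and 0.505). Several of these enzymes have near-identical pseudogene copies, and how the authors' counting divided shared reads is not given in the sources used here, so their levels are uncertain.

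Pyruvate has several fates, and the genes around it divided. Lactate dehydrogenase A (Ldha), which favors lactate production, stood at 111, 119.5 and 90.8 FPKM in WT at 0 h, 127, 126 and 91.0 in WT at 24 h, 102, 141 and 125 in β8ITG-cKO at 0 h and 175, 153 and 132 in β8ITG-cKO at 24 h, and passed no test. Ldhb, the form that favors pyruvate, stood at 24.5, 34.0 and 17.7 FPKM in WT at 0 h and 8.26, 10.1 and 16.9 FPKM at 24 h, a fall of 1.06 ± 0.30 on the log2 scale (limma adjusted p = 0.0331). The WT groups were separated by less than 1 FPKM. In β8ITG-cKO Ldhb stood at 23.6, 12.3 and 22.2 FPKM at 0 h and 12.4, 12.9 and 21.8 FPKM at 24 h, overlapping.

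The monocarboxylate transporter Slc16a1 (MCT1) was the only member to rise in WT, and it rose in both genotypes. It stood at 4.20, 5.87 and 3.98 FPKM in WT at 0 h and 8.61, 8.83 and 8.78 FPKM at 24 h, a change of 0.79 ± 0.16 (limma adjusted p = 0.0106). In β8ITG-cKO it stood at 4.35, 4.30 and 4.26 FPKM at 0 h and 10.6, 7.87 and 8.58 FPKM at 24 h, a change of 0.91 ± 0.12 (limma adjusted p = 0.00083). All 6 libraries at 24 h lay above all 6 at 0 h. Slc16a3 (MCT4), the hypoxia-responsive lactate exporter, was higher in β8ITG-cKO at 0 h. It stood at 3.79, 3.92 and 4.42 FPKM in WT at 0 h and 6.18, 10.2 and 7.80 FPKM in β8ITG-cKO at 0 h, a difference of 0.83 ± 0.17 (limma adjusted p = 0.0321) without overlap. It was lost in 5 of the 6 fits that left out 1 library, with an adjusted p by limma of up to 0.113, and in 1 fit over all 12 libraries (0.193). At 24 h it stood at 4.20, 5.39 and 4.51 FPKM in WT and 22.6, 14.7 and 5.87 FPKM in β8ITG-cKO, a difference of 1.27 ± 0.41 (limma adjusted p = 0.127) that did not pass the test. β8ITG-cKO replicate 3 lay near the WT libraries.

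Pyruvate dehydrogenase kinases keep pyruvate out of mitochondria. Pdk1 stood at 7.76, 6.59 and 5.98 FPKM in WT at 0 h and 2.11, 1.64 and 2.28 FPKM at 24 h, a change of -1.37 ± 0.17 (limma adjusted p = 0.00144) without overlap. The β8ITG-cKO libraries held 5.54, 5.75 and 6.87 FPKM at 0 h and 7.57, 4.22 and 3.04 FPKM at 24 h, overlapping. Pdk4 stood at 0.99 FPKM or less in every library and was under the filter in the β8ITG-cKO time course and at 0 h.

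Of the secreted members, Vegfa, the main growth factor for blood vessels, stood at 13.7, 14.5 and 14.4 FPKM in WT at 0 h, 11.5, 25.7 and 19.8 in WT at 24 h, 11.2, 15.7 and 13.9 in β8ITG-cKO at 0 h and 40.4, 29.2 and 17.8 in β8ITG-cKO at 24 h. It rose in β8ITG-cKO by 0.99 ± 0.27 (limma adjusted p = 0.0187) without overlap, and its WT change of 0.33 ± 0.26 (limma adjusted p = 0.368) did not pass the test. Adm (adrenomedullin), a vasodilator peptide gene, was listed at 0 in all 3 β8ITG-cKO libraries at 0 h and stood at 10.9, 8.46 and 4.12 FPKM at 24 h. In WT it stood at 3.28, 1.44 and 2.38 FPKM at 0 h and 3.42, 7.75 and 4.11 FPKM at 24 h. The fitted changes of Adm were 3.06 ± 0.28 (limma adjusted p = 0.000139) in β8ITG-cKO over time and -1.71 ± 0.22 (limma adjusted p = 0.00682) between genotypes at 0 h. Both depend on the pseudocount of 1, and no fold is given against a group listed at 0. At 24 h the genotypes overlapped, with a difference of 0.51 ± 0.36 (limma adjusted p = 0.483).

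Car9 and Car12 encode membrane carbonic anhydrases that help cells export acid. Car9, a classical hypoxia marker, stood at 3.56, 1.39 and 1.63 FPKM in WT at 0 h, 2.89, 1.06 and 1.78 in WT at 24 h, 1.32, 2.12 and 3.04 in β8ITG-cKO at 0 h and 16.2, 14 and 2.79 in β8ITG-cKO at 24 h. Values above 10 FPKM occurred only in β8ITG-cKO 24 h replicates 1 and 2. The change in β8ITG-cKO was 1.69 ± 0.54 (limma adjusted p = 0.0345), but the groups overlapped, and leaving out replicate 1 of β8ITG-cKO at 24 h gave 1.29 (limma adjusted p = 0.107). Car12 stood at 0.76 FPKM or less in every library and was under the filter in every comparison.

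P4ha1 and P4ha2, the catalytic subunits of collagen prolyl 4-hydroxylase and known HIF targets, were higher in β8ITG-cKO at 0 h and fell over 24 h in that genotype. In WT over 24 h the groups overlapped for P4ha1, which did not pass the test. P4ha1 stood at 55.9, 59.3 and 66.6 FPKM in WT at 0 h and 92.6, 148 and 117 FPKM in β8ITG-cKO at 0 h, a difference of 0.94 ± 0.17 (limma adjusted p = 0.0236). P4ha2 stood at 20.7, 21.7 and 26.6 FPKM in WT at 0 h and 32.3, 48.8 and 45.0 FPKM in β8ITG-cKO at 0 h, a difference of 0.83 ± 0.17 (limma adjusted p = 0.0317). Neither pair of groups overlapped, yet P4ha1 was lost in 3 and P4ha2 in 4 of the 6 fits leaving out 1 library (limma adjusted p up to 0.0961 and 0.126). At 24 h P4ha1 stood at 57.2, 41.8 and 33.1 FPKM in WT and 85.2, 58.3 and 53.7 FPKM in β8ITG-cKO, and fell in β8ITG-cKO, with a change of -0.85 ± 0.22 (limma adjusted p = 0.0144). At 24 h P4ha2 stood at 13.5, 9.47 and 9.19 FPKM in WT and 18.6, 14.4 and 15.4 FPKM in β8ITG-cKO. P4ha2 fell in both genotypes without overlap, by -1.05 ± 0.18 (limma adjusted p = 0.00573) in WT and -1.32 ± 0.17 (limma adjusted p = 0.000614) in β8ITG-cKO.

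The last 4 members are stress-responsive HIF targets. Bnip3, a mitochondrial protein of mitophagy and cell death, stood at 15.8, 18.5 and 14.9 FPKM in WT at 0 h and 8.04, 6.98 and 5.80 FPKM at 24 h, a change of -1.14 ± 0.16 (limma adjusted p = 0.00261) without overlap. In β8ITG-cKO it stood at 15.7, 16.3 and 17.4 FPKM at 0 h and 40.2, 22.7 and 12.3 FPKM at 24 h, with replicates 1 and 2 above and replicate 3 below the 0 h libraries. Ankrd37, an ankyrin repeat gene known as a HIF target, stood at 1.51, 2.54 and 1.44 FPKM in WT at 0 h and 1.27, 1.38 and 1.27 FPKM at 24 h. The β8ITG-cKO libraries held 3.62, 2.17 and 4.0 FPKM at 0 h and 12.4, 8.03 and 6.67 FPKM at 24 h, a rise of 1.22 ± 0.24 (limma adjusted p = 0.00502) without overlap. At 24 h all 3 β8ITG-cKO libraries lay above all 3 WT libraries, a 6.93-fold ratio of means and a difference of 2.08 ± 0.21 (limma adjusted p = 0.00232).

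Ndrg1, a differentiation and stress gene, stood at 63.5, 89.1 and 53.3 FPKM in WT at 0 h and 15.5, 20.7 and 36.0 FPKM at 24 h, a change of -1.53 ± 0.31 (limma adjusted p = 0.0101) without overlap. In β8ITG-cKO it stood at 51.8, 36.7 and 44.0 FPKM at 0 h and 50.2, 31.6 and 73.9 FPKM at 24 h, overlapping. Ddit4 (REDD1), an inhibitor of mTORC1, stood at 11.8, 24.9 and 10.7 FPKM in WT at 0 h and 2.26, 5.81 and 7.91 FPKM at 24 h, a change of -1.43 ± 0.42 (limma adjusted p = 0.0383). The β8ITG-cKO libraries held 4.01, 6.44 and 6.61 FPKM at 0 h and 14.3, 7.78 and 7.41 FPKM at 24 h, with every 24 h library above every 0 h library but a change of 0.66 ± 0.26 (limma adjusted p = 0.0705) that did not pass the test.

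The difference between the genotypes in the change over 24 h (the interaction, a log2 value) was tested over all 12 libraries. It was 1.40 ± 0.30 (limma adjusted p = 0.0166) for Hk1, 1.50 ± 0.33 (limma adjusted p = 0.0174) for Ankrd37, 1.57 ± 0.42 (limma adjusted p = 0.0401) for Bnip3, 1.69 ± 0.47 (limma adjusted p = 0.0443) for Ndrg1, 2.10 ± 0.56 (limma adjusted p = 0.0379) for Ddit4 and 2.23 ± 0.46 (limma adjusted p = 0.0134) for Adm. All 6 were higher in β8ITG-cKO, and none was lower by limma, with 16 members at an unadjusted p under 0.05 in either direction, against 24.2% of all genes. These 6 of 35 members tested compare with 6.83% of 15262 genes higher and 2.56% lower. The median interaction was 0.49 over the members and 0.00 over all genes. Hk1 and Ankrd37 rose in β8ITG-cKO and did not pass the test in WT, whereas Bnip3, Ndrg1 and Ddit4 fell in WT and did not pass it in β8ITG-cKO. Ddit4, Ndrg1 and Adm also started from lower values at 0 h in all 3 β8ITG-cKO libraries than in all 3 WT libraries. Without WT 0 h replicate 2, the WT 0 h library richest in retinal RNA, 3 members passed (Hk1 at limma adjusted p = 0.0125, Ankrd37 at 0.0369 and Adm at 0.0135), while the interaction was 1.48 for Bnip3 (limma adjusted p = 0.0849), 1.48 for Ndrg1 (0.0974) and 1.74 for Ddit4 (0.076). Leaving out WT 0 h replicate 1, WT 24 h replicate 1 or any β8ITG-cKO 0 h library also left 3 members.

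**Figure D3:**
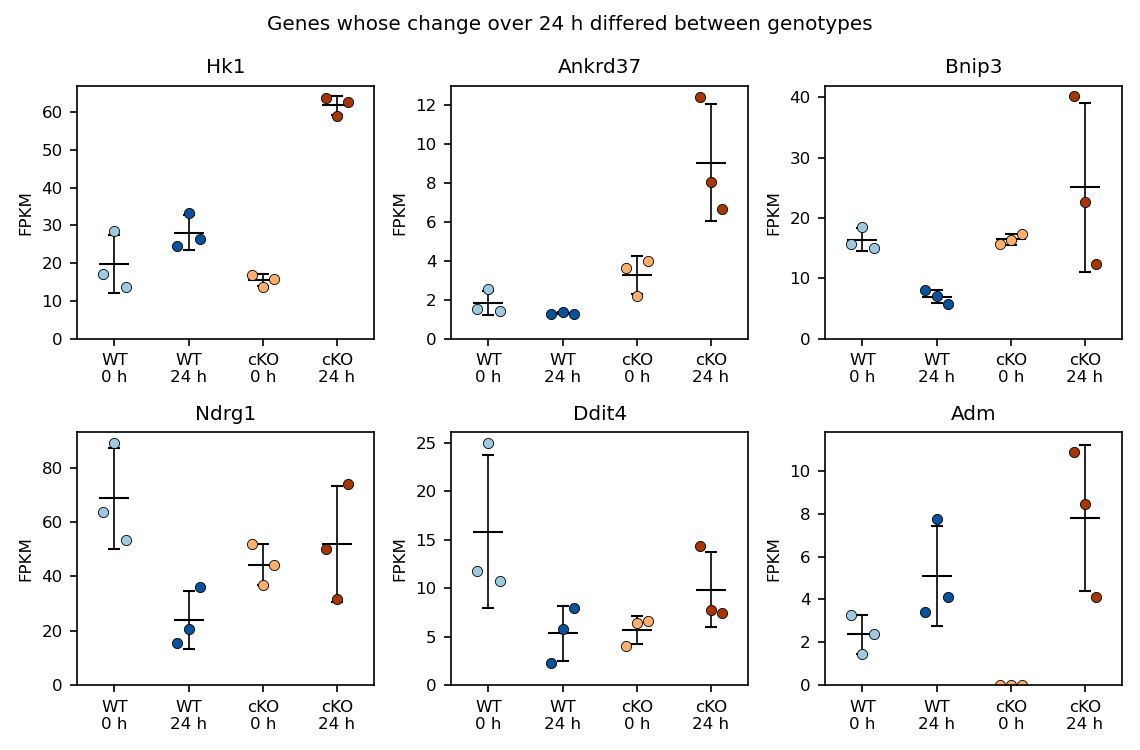
FPKM (vertical axes, linear from 0) of the 6 genes past the interaction test, by group (cKO is β8ITG-cKO). Points are libraries, wide bars means and error bars SD of 3 libraries. Hk1 stood at 58.9 to 63.7 FPKM in β8ITG-cKO at 24 h against at most 33.4 FPKM elsewhere, and Adm was listed at 0 in β8ITG-cKO at 0 h.

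Promoter sequence is shown for 5 of the 6 interaction genes, all but Ndrg1, because HIF-1 is known to bind the core motifs ACGTG and GCGTG. Both were searched on both strands in the 250 bases before each RefSeq start site (GRCm38.p6). ACGTG on both strands overlaps within CACGTG, the E-box that other factors bind. RefSeq windows were found for 35 of 37 members, 49 windows in all, and Slc2a3 and Ndrg1 had none in the table used here. Either motif was in 81.6% of the members' windows and 38.6% of all 32851 windows, and ACGTG in 49.0% and 16.6%. Many members are textbook HIF targets, so the motif share is a description of how they were chosen. The stretches run 5′ to 3′ on the gene's strand, with motif matches on either strand in capitals. Ankrd37 (chr8:45999851-46000100, minus strand) and Bnip3 (chr7:138909527-138909633, minus strand) each held 4 or more matches, and Ddit4 (chr10:59951871-59951967, minus strand) and Adm (chr7:110627557-110627617, plus strand) held fewer. Hk1 (chr10:62340422-62340627, minus strand) is shown from the one of its 2 windows that held matches. Aldoc, the tested member with the largest fall on the log2 scale, is given beside them from the first of its 2 windows (chr11:78323013-78323037, plus strand). Its second window, not printed, also held 1 GCGTG match.
Hk1: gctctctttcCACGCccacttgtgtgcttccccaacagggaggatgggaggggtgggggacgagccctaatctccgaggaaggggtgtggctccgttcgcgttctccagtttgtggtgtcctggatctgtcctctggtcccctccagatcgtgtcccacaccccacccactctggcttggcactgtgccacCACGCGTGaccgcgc
Ankrd37: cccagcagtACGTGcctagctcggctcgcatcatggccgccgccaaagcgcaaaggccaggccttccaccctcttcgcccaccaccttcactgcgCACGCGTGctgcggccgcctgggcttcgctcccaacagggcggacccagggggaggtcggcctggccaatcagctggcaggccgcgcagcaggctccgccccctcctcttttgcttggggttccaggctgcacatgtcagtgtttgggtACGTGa
Bnip3: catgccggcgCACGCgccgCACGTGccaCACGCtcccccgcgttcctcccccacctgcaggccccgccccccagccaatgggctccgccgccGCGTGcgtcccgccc
Ddit4: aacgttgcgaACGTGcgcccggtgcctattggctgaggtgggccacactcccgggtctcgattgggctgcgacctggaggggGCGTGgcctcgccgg
Adm: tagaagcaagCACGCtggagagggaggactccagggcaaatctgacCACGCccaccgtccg
Aldoc: acctctgaggGCGTGgccttaccct
The Adm and Aldoc stretches hold GCGTG matches only, and the 3 matches of Hk1 are GCGTG as well. A match is a string of letters and does not show binding.

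In WT over 24 h, 9 of 36 members tested fell and 1 rose, against 8.81% and 20.9% of the 15146 genes tested. The members' median change was -0.02, and that of all genes 0.16. The 9 that fell were Aldoc, Ndrg1, Ddit4, Pdk1, Bnip3, Ldhb, P4ha2, Hif1a and Pfkm, and 7 of them, all but Hif1a and Pfkm, also met the study's size criteria (a fold above 2, a difference above 2 FPKM and at least 2 FPKM in a group), against 3.92% of genes, while no member rose by them, against 10.3%. Without overlap, 12 members lay lower and 2 higher at 24 h, against 15.6% and 31.3% of genes. With every library rescaled to 1 common median, which moved the median change of all genes from 0.16 to -0.05, 14 members fell and 1 rose, and the share of higher genes among all calls went from 70.3% to 47.3%. Without WT 0 h replicate 1, 5 members fell and none rose, and without WT 0 h replicate 2, 6 fell and 2 rose. Aldoc, Pdk1, Bnip3, P4ha2 and Ndrg1 fell in all 6 fits that left out 1 library, and Ddit4 in 1 of 6, with an adjusted p by limma of 0.022 to 0.104. Ldhb was lost in 4 of these fits (limma adjusted p up to 0.101), Pfkm in 2, and Hif1a and Slc16a1 in 1 each, without WT 0 h replicate 1 (limma adjusted p = 0.0505 and 0.051).

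In β8ITG-cKO over 24 h, 14 of 35 members tested rose and 5 fell, against 35.4% and 10.7% of the 15237 genes tested. The share that rose was thus close to that of all genes. The members' median change was 0.41, and that of all genes 0.23. By size criteria as well, 6 rose (Hk1, Slc16a1, Vegfa, Ankrd37, Adm and Car9) and 2 fell (Aldoc and P4ha2), against 11.3% and 3.77% of genes. Without overlap, 14 members lay higher and 4 lower at 24 h, against 42.9% and 14% of genes. After the rescaling, which moved the median of all genes from 0.23 to 0.00, 7 members rose and 5 fell, and the share of higher genes among all calls went from 76.7% to 51.7%. Hk2, Gpi1, Aldoa, Pgk1, Pgam1, Vegfa and Car9 were the rises that no longer passed. Slc2a1 was lost in 4 and Pgk1, Pgam1 and Car9 in 5 of the 6 fits that left out 1 library, and the number of members that rose was lowest, at 10, when replicate 1 of the 0 h group or replicate 2 of the 24 h group was left out and highest, at 18, when replicate 3 of the 24 h group was.

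**Figure D4:**
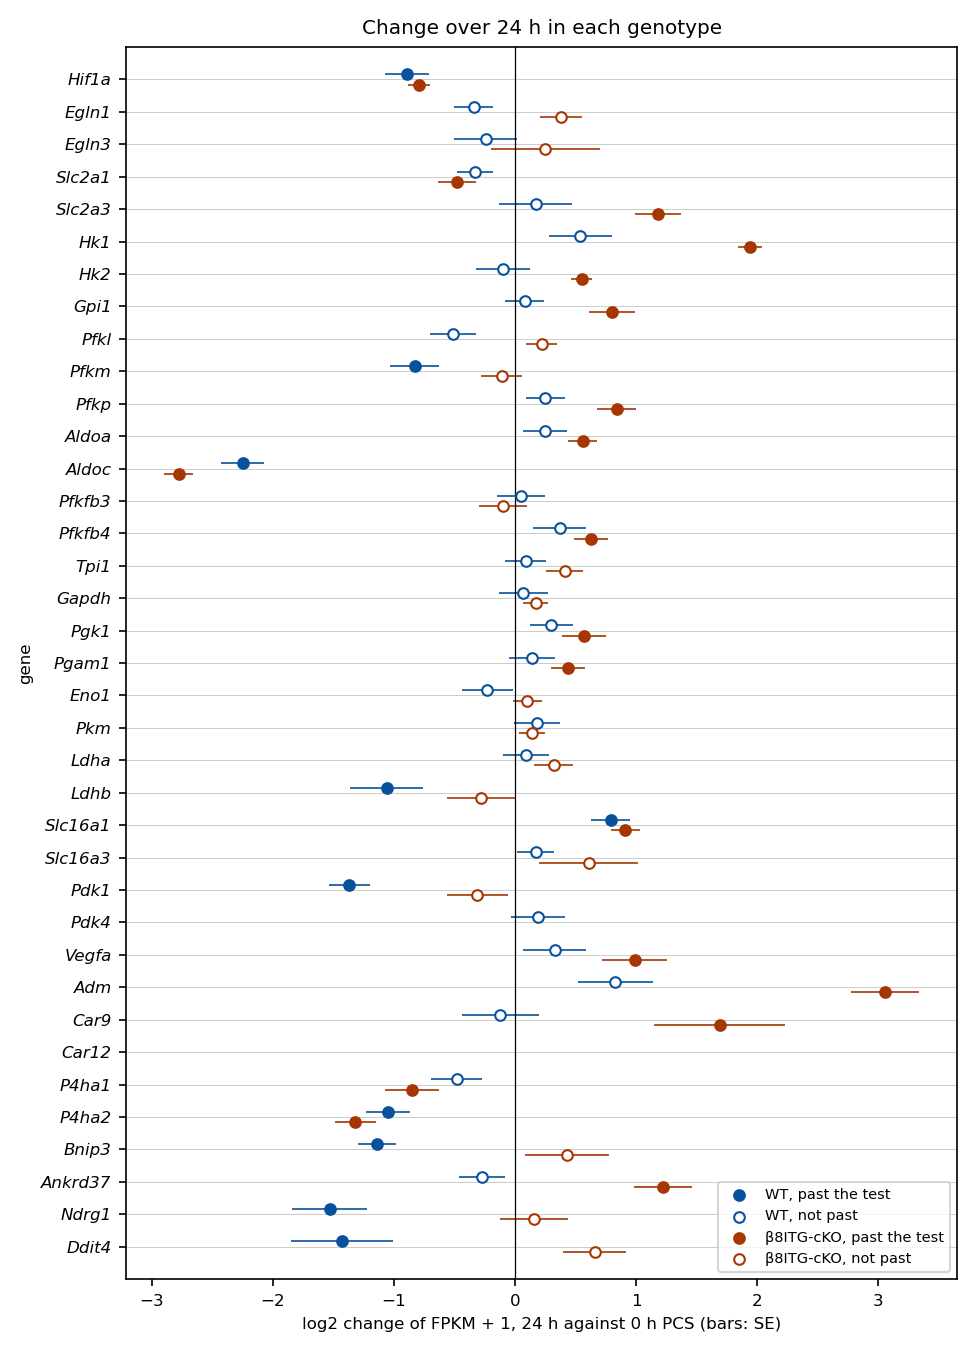
Change over 24 h PCS of each gene (rows, grouped by role) in WT and β8ITG-cKO, as log2 change of FPKM + 1 (horizontal axis) with SE bars. Filled points passed the test and open points did not, and genes under the filter have no point. Aldoc lies far left in both genotypes at -2.25 and -2.78, and the 4 lowest rows show the genes of the Bnip3 group apart by genotype.

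At 24 h PCS, Ankrd37, Hk1 and Pfkl were higher in β8ITG-cKO than in WT, 3 of 36 members tested, and none was lower by limma. The background was 5.64% higher and 0.644% lower of 15366 genes. All 3 also met the size criteria, against 3.37% of genes higher and 0.286% lower. The difference was 2.08 ± 0.21 (limma adjusted p = 0.00232) for Ankrd37, 1.12 ± 0.15 (limma adjusted p = 0.00529) for Hk1 and 1.12 ± 0.20 (limma adjusted p = 0.017) for Pfkl. An unadjusted p under 0.05 was found for 17 of 36 members and for 20.4% of all genes. The genotypes did not overlap for 18 members, all higher in β8ITG-cKO, against 17.5% of genes higher and 9% lower. Of the 36 members 34 had a log2 difference above 0, with Aldoc and Pdk4 the exceptions, and the median was 0.56 against 0.03 for all genes. Members that missed the test with large differences were Car9 (1.82 ± 0.56, limma adjusted p = 0.115), Bnip3 (1.58 ± 0.37, limma adjusted p = 0.0518) and Egln3 (1.37 ± 0.50, limma adjusted p = 0.178). With 1 fit over all 12 libraries 11 members passed, without β8ITG-cKO 24 h replicate 1, 2, and without replicate 3, 6. Pfkl had an adjusted p by limma of 0.0676 without β8ITG-cKO 24 h replicate 1 and of 0.0695 without replicate 2. Rescaling gave 4 members higher and none lower, and the share of higher genes among all calls went from 89.8% to 77.3%.

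Immediately after surgery, 5 of 35 members tested were higher in β8ITG-cKO (P4ha1, Egln3, Slc16a3, P4ha2 and Slc2a1) and 1, Adm, was lower, against 4.18% and 2.75% of 14708 genes. By size criteria as well, Egln3 was higher and Adm lower, against 1.35% and 1.18%. Without overlap, 10 members lay higher and 3 lower, against 18.0% and 12.8% of genes. The median difference was 0.03 over the members and 0.02 over all genes. The higher members were fewer in 5 of the 6 fits that left out 1 library, down to 0 without WT 0 h replicate 1 or without β8ITG-cKO 0 h replicate 3, whereas Adm remained lower in all 6.

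Other genes of the same pathways, on lists drawn up apart from the members, moved as follows. Of 18 further glycolytic genes tested in WT over 24 h, 3 rose and 6 fell, against 20.9% and 8.81% of all genes, led by muscle phosphoglycerate mutase (Pgam2, -1.91 ± 0.32, limma adjusted p = 0.00465), and in β8ITG-cKO 6 rose and 7 fell of 17, against 35.4% and 10.7%. Past the interaction test, 3 of 17 were higher and 0 lower, against 6.83% and 2.56% of all genes. At 24 h the neuronal enolase Eno2 and the phosphofructokinase-2 gene Pfkfb2 were higher in β8ITG-cKO, 2 of 16 tested, against 5.64% of all genes. Eno2 stood at 6.40, 8.62 and 2.99 FPKM in WT at 0 h, 2.90, 6.27 and 4.41 in WT at 24 h, 3.66, 3.08 and 3.86 in β8ITG-cKO at 0 h and 15.6, 17.2 and 21.2 in β8ITG-cKO at 24 h, a difference at 24 h of 1.82 ± 0.24 (limma adjusted p = 0.00529). Pfkfb2 stood at 4.12, 6.55 and 2.75 FPKM in WT at 0 h and 3.90, 2.94 and 3.72 FPKM in β8ITG-cKO at 0 h. At 24 h it stood at 1.96, 2.20 and 2.49 FPKM in WT and 6.03, 6.60 and 6.32 FPKM in β8ITG-cKO, a difference of 1.19 ± 0.13 (limma adjusted p = 0.00317).

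Of 37 further hypoxia-responsive genes tested in WT over 24 h, 10 rose and 6 fell, against 20.9% and 8.81% of all genes, and of 36 in β8ITG-cKO 13 rose and 5 fell, against 35.4% and 10.7%. The lipase inhibitor Angptl4 and heme oxygenase Hmox1 rose in both. Angptl4 stood at 11.0, 1.19 and 5.35 FPKM in WT at 0 h, 39.5, 44.5 and 39.6 in WT at 24 h, 2.54, 2.97 and 2.79 in β8ITG-cKO at 0 h and 47.9, 35.3 and 37.4 in β8ITG-cKO at 24 h, with changes of 2.93 ± 0.53 (limma adjusted p = 0.00632) and 3.44 ± 0.13 (limma adjusted p = 3.65e-06). The circadian and hypoxia repressor Bhlhe40 stood at 45.8, 41.1 and 29.6 FPKM in WT at 0 h and 12.4, 11.2 and 9.96 FPKM in β8ITG-cKO at 0 h, a difference of -1.69 ± 0.17 (limma adjusted p = 0.00303), and at 38.9, 58.2 and 43.5 FPKM and 43.2, 36.9 and 33.3 FPKM at 24 h. Its interaction was 1.40 ± 0.26 (limma adjusted p = 0.00985), and that of Anxa2 -1.26 ± 0.24 (limma adjusted p = 0.00985). These were the only genes of this list past the interaction test, 1 of 38 higher and 1 lower, against 6.83% and 2.56% of all genes. Only Mxi1 differed between genotypes at 24 h, 1 of 36 against 5.64% of all genes higher and 0.644% lower, with a difference of 0.54 ± 0.13 (limma adjusted p = 0.0493).

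Of 12 genes of the pentose phosphate and polyol pathways, which draw on glucose 6-phosphate and glucose, 6 rose and 2 fell in WT, against 20.9% and 8.81% of all genes, and 6 rose and 4 fell in β8ITG-cKO, against 35.4% and 10.7%. The endoplasmic hexose 6-phosphate dehydrogenase H6pd rose in both (1.74 ± 0.21, limma adjusted p = 0.00143 and 1.37 ± 0.13, limma adjusted p = 0.000174), and sorbitol dehydrogenase Sord fell in both (-1.11 ± 0.26, limma adjusted p = 0.0157 and -1.58 ± 0.21, limma adjusted p = 0.000816). Past the interaction test, 1 of the 12 was higher and 1 lower, against 6.83% and 2.56% of all genes. The lower one was transketolase (Tkt), abundant in the cornea, which fell by more in β8ITG-cKO, with an interaction of -0.91 ± 0.22 (limma adjusted p = 0.0264). Of 8 genes for pyruvate entry into mitochondria, 1 rose and 1 fell in WT and 3 rose in β8ITG-cKO, beside the same shares of all genes, and none differed between genotypes by limma at 0 h, where 2 had an unadjusted p under 0.05, or at 24 h, where 0 did.

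Retinal marker RNA moved with the β8ITG-cKO 24 h group. Photoreceptors are known for a high rate of glycolysis. WT 0 h replicate 2, with 1020 summed FPKM of photoreceptor markers, exceeded every β8ITG-cKO 24 h library in that sum. It was above all 3 of them for 9 of the 14 markers, Sag among them, and below all 3 for Crx, Rbp3, Rp1 and Abca4. Its Rbp3 of 66.9 FPKM compared with 95.9 to 101 FPKM. Its Hk1 of 28.4 FPKM was the highest of its group and below the 58.9 FPKM of the lowest β8ITG-cKO 24 h library. Its Ankrd37 of 2.54 FPKM lay below the 6.67 FPKM of the lowest such library, and its Pfkl of 25.9 FPKM below 30.2 FPKM. Its Eno2 of 8.62 FPKM was likewise its group's highest and below 15.6 FPKM. Its Pfkfb2 of 6.55 FPKM lay within the β8ITG-cKO 24 h range of 6.03 to 6.60 FPKM, and its Slc2a3 of 1.47 FPKM within 1.42 to 2.87 FPKM. Its Bnip3 of 18.5 FPKM lay within the β8ITG-cKO 24 h range of 12.3 to 40.2 FPKM. Its Ndrg1 of 89.1 FPKM and Ddit4 of 24.9 FPKM lay above every β8ITG-cKO 24 h library, where the highest were 73.9 and 14.3 FPKM. This library was the highest of its group for 25 of 37 members (67.6%) and for 51.5% of 15262 genes. Summed over 9 inner retina markers, FPKM were 55.2, 69.4 and 83.5 in β8ITG-cKO at 24 h and 14.4, 33.0 and 33.8 in WT at 24 h, and at 0 h they were 53.3, 82.9 and 35.0 in WT and 40.4, 30.9 and 32.7 in β8ITG-cKO, with Trpm1 the most abundant and Slc17a6 at 0 in all 3 WT 24 h libraries. The part of retinal RNA in the genotype differences was not tested.

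**Figure D5:**
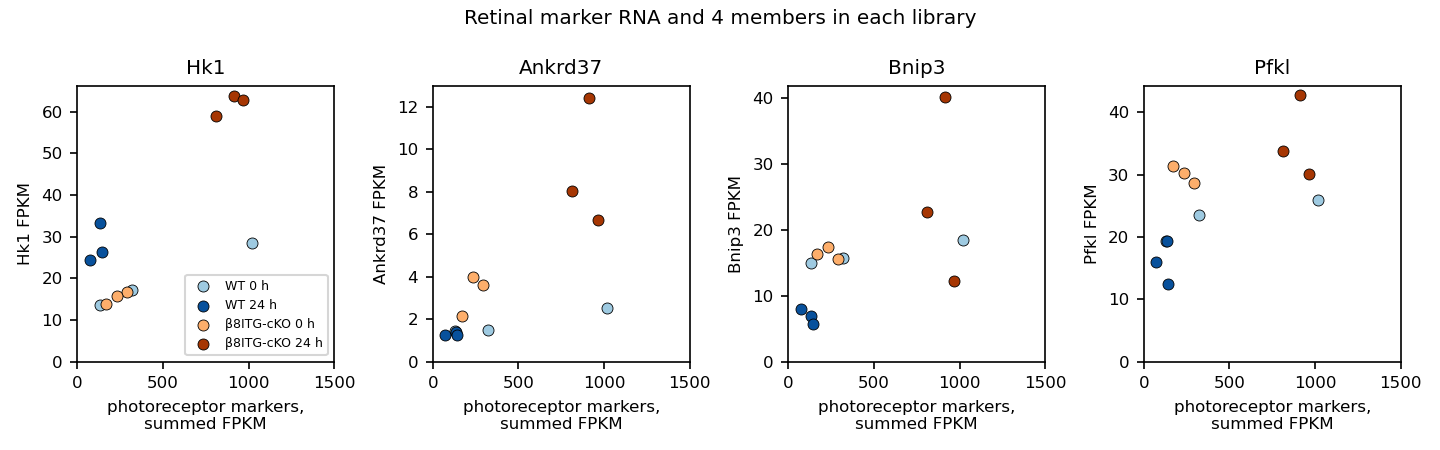
FPKM of Hk1, Ankrd37, Bnip3 and Pfkl (vertical axes) against the summed FPKM of 14 photoreceptor markers (horizontal axis) in each of the 12 libraries, colored by group, all axes linear from 0. The WT 0 h library at 1020 lies to the right of the 3 β8ITG-cKO 24 h libraries, though 4 of the 14 markers were lower in it than in all 3. It lies below all of them for Hk1, Ankrd37 and Pfkl and within their range for Bnip3. The part of retinal RNA was not tested.

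Markers of other cells also moved between the groups. Summed FPKM of 10 neutrophil markers, S100a9 the most abundant at 24 h, was 64.5, 45.5 and 49.0 in WT at 24 h and 23.8, 12 and 34.8 in β8ITG-cKO at 24 h, against at most 1.41 at 0 h, with Ly6g, Mpo and Elane at 0 in all 12 libraries. For 10 macrophage markers, Lyz2 the most abundant in 11 of 12 libraries, it was 44.6 to 62.1 in WT and 40.7 to 66.0 in β8ITG-cKO at 24 h, against 11.1 to 23.2 at 0 h. The higher sums came mainly from Lyz2, Cd14, Cd68 and Itgam. In WT the mean of C1qa was 2.16 FPKM at 0 h and 1.34 FPKM at 24 h, that of C1qc 3.83 and 1.54 FPKM, and that of Mrc1 1.18 and 0.811 FPKM. In β8ITG-cKO the means at 0 h and 24 h were 1.40 and 3.77 FPKM for C1qa, 1.71 and 4.0 FPKM for C1qc and 0.716 and 1.27 FPKM for Mrc1. For 7 vascular endothelium markers, led by Kdr in 11 of 12 libraries, it was 8.12, 5.90 and 8.11 in β8ITG-cKO at 24 h and at most 4.36 elsewhere. Summed FPKM of 12 lens fiber markers, led by Crybb2, fell from between 28900 and 42500 at 0 h to between 6800 and 14700 at 24 h. At 0 h, 8 corneal epithelium markers summed to 923, 542 and 764 FPKM in β8ITG-cKO and to 274, 213 and 254 FPKM in WT, nearly all of it Aldh3a1, while Krt12, Krt5, Krt14 and Trp63 were low or at 0. At 24 h the corneal sums were 141 to 192 FPKM in β8ITG-cKO, below every 0 h library of that genotype, and 292, 157 and 452 FPKM in WT. At 0 h, 7 red blood cell markers, led by Hba-a1 or Hba-a2, summed to 15.8, 6.52 and 11.7 FPKM in β8ITG-cKO and to 153, 73.7 and 68.0 FPKM in WT. At 24 h these sums were 195, 174 and 87.4 FPKM in β8ITG-cKO, above every 0 h library of that genotype, and 36.0, 220.0 and 170.0 FPKM in WT. Keratocyte and pigment cell markers, 6 led by Ptgds and 7 led by Dct or Oca2, summed to 436 to 1010 FPKM and to 13.4 to 107 FPKM over the 12 libraries. The part of these cells in the changes was not tested.

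Within some groups the members tended to share their highest or lowest library. In β8ITG-cKO at 24 h, replicate 1 was the highest of the 3 for 30 of 37 members (81.1%), whereas over 15262 genes it was the highest for 22.2%. It was also the highest for 24 of 39 further hypoxia-responsive genes and for 9 of 29 further glycolytic genes. Replicate 3 was the lowest for 24 of 37 members and for 3735 of 15262 genes. In WT at 0 h, replicate 3 was the lowest for 30 of 37 members and for 7729 of 15262 genes. Bnip3, Egln3, Car9, Slc16a3, Pdk1 and Vegfa were among 10 members whose highest β8ITG-cKO 24 h library exceeded the lowest more than 2-fold, and the median ratio was 1.59, against 1.44 in WT at 24 h, where 10 members also exceeded 2-fold, 1.36 in WT at 0 h and 1.25 in β8ITG-cKO at 0 h. Photoreceptor marker sums of the 3 β8ITG-cKO 24 h libraries were 913, 811 and 966, in another order.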

How the data were processed

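RNA was prepared from pooled lens capsules and sequenced on an Illumina NovaSeq instrument after library construction with a stranded total RNA kit for low input. The submitters' processing notes name FastQC, cutadapt 1.12, TopHat2 2.1.0 and Cuffdiff 2.2.1 and the builds mm10 and GRCm38.p5. The authors obtained FPKM with Cuffdiff and deposited them per library in 4 tables, which repeat each library with identical values. The authors' own means, group values, log2 fold changes and p-values in these tables were not used. The gene annotation and the handling of reads shared between genes are not given in the sources used here.

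Reads were not counted again. FPKM were taken as log2(FPKM + 1), genes with a mean under 0.5 FPKM in the libraries of a fit were left out, and limma 3.58.1 in R 4.3.3 (eBayes with a mean trend) was fitted to the 6 libraries of each pair of groups and, for the interaction, to all 12. P-values were adjusted by Benjamini-Hochberg over all genes tested, and the procedure was tested on simulated data. Relative depth was estimated from FPKM steps of genes with about 1 fragment. An exact two-sided permutation test of 3 against 3 libraries cannot go below p = 0.1, so none was run for single genes. The series' design text calls the 3 libraries biological triplicates. The members and lists were chosen with earlier results of these data known. Genes named with the value of every library were those with the largest changes past the test (up to 6 in each direction and comparison), those past the interaction test, Hif1a, Vegfa, Itgb8 and the isozyme or partner pairs; of the other lists up to 4 genes a comparison could be named. Positions come from the files' loci and RefSeq windows (GRCm38.p6). Each result was recomputed with other filters, pseudocounts, scaling, fits and left-out libraries. P-values measure the spread between these pooled libraries. In the photoreceptor and inner retina marker lists, 1 gene each is not reported here and was left out of the sums.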

Additional observations from a re-analysis of the deposited data

Results flagged for a closer look

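These 6 genes were singled out because their change over 24 h PCS differed between β8ITG-cKO and WT by the interaction test (limma, all 12 libraries). The value is the log2 change in β8ITG-cKO minus that in WT. It was 1.40 for Hk1, 1.57 for Bnip3, 1.50 for Ankrd37, 2.23 for Adm, 1.69 for Ndrg1 and 2.10 for Ddit4. Hk1, Ankrd37 and Adm passed in all 12 fits that left out 1 library, while Bnip3 and Ddit4 were lost in 10 and Ndrg1 in 9 of them. The value of Adm depends on the pseudocount, since Adm was listed at 0 in the 3 β8ITG-cKO 0 h libraries.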

How the results depend on the processing

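Of 44 member results past the test, 22 kept their call under every alternative filter, pseudocount, scaling, fit and left-out library, and 0 reversed. These counts leave aside the 2 stricter criteria. With the study's size criteria as well, the genes past the test went from 4500 to 2159 in WT over time, from 7030 to 2294 in β8ITG-cKO over time, from 966 to 562 at 24 h and from 1020 to 371 at 0 h, and the members higher were 0, 6, 3 and 1, and those lower 7, 2, 0 and 1. At an adjusted p of at most 0.01 (limma) there were 1986, 4474, 408 and 149 genes and 312 for the interaction, with 0 members higher and 5 lower in WT, 9 and 3 in β8ITG-cKO, 0 higher at 0 h and 0 in the interaction. A mean of at least 2 FPKM gave 574 genes at 24 h and 930 for the interaction. No filter, which adds genes to the adjustment, gave 254 genes and 0 members higher at 0 h and 3 members in the interaction. A fit over all 12 libraries gave 1538 genes and 11 members higher at 24 h and 3 members higher at 0 h. Rescaled FPKM gave 14 members lower in WT, 7 higher in β8ITG-cKO and 3 lower at 0 h, and a pseudocount of 0.1 gave 2 lower at 0 h. The cause was not tested in these cases.

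Leaving out 1 library gave 2512 to 5087 genes, 0 to 2 members higher and 5 to 9 lower in WT over time, 5639 to 6300 genes, 10 to 18 higher and 4 to 6 lower in β8ITG-cKO over time, 439 to 1108 genes and 2 to 6 members higher at 24 h, 136 to 756 genes and 0 to 5 members higher at 0 h, and 688 to 1921 genes and 3 to 7 members higher in the interaction. No label says that a replicate number marks a shared litter or day, and same-numbered libraries did not deviate together (r from -0.218 to 0.082), and not every library correlated best with its own number, so pairing is not established. With the replicate number as a block, 34 of 44 member results kept their call, and at 0 h 269 genes passed and 1 member was higher. Depth is known only relative to the other libraries, and genes near 1 FPKM (Slc2a3, Pfkfb4, Pdk4, Car12) rest on few fragments.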
